A study of Homo sapiens with 20 samples.

Results

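The albumin family examined here comprised 4 genes for secreted carrier proteins, *ALB* (albumin), *AFP* (alpha-fetoprotein), *AFM* (afamin) and *GC* (the vitamin D-binding protein). They were selected by Ensembl gene identifier, and each identifier matched 1 row of the 60624 genes listed for human islet-like organoids (hILOs) and 1 row of the 60623 genes listed for pancreatic progenitors (PPs). The identifiers were ENSG00000163631 for *ALB*, ENSG00000081051 for *AFP*, ENSG00000079557 for *AFM* and ENSG00000145321 for *GC*.

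The study asked what the RNA demethylase ALKBH5, which removes N6-methyladenosine (m6A) from mRNA, does when human pluripotent stem cells are directed towards pancreas. All cells descended from MEL1, an established human embryonic stem cell line, here with a green fluorescent protein reporter in one copy of its insulin gene. They carried either the wild-type *ALKBH5* gene (WT) or a homozygous knockout made with CRISPR-Cpf1 (A5-KO), so that reporter and differentiation media were common to both genotypes and the knockout stood on a single edited line. RNA-seq was available for 4 hILO libraries, 2 WT and 2 A5-KO, whose listed media ran to day 22, and for 16 PP libraries, whose listed media ran to day 14. The PPs were untreated (0 h) or had been kept for 1, 2 or 3 h in actinomycin D (Act D), which blocks transcription, at 1 µg per ml, with 2 libraries for each genotype and time. The labels did not say whether replicates were separate cultures, while the study describes the Act D RNA-seq as 2 biological replicates. The p-values measure the spread between these libraries, which may be technical where replicates were not separate cultures.

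Albumin is the main protein of adult plasma and carries fatty acids, hormones and drugs. Alpha-fetoprotein takes a comparable role in the fetus, where it is made by yolk sac and liver and is then switched off after birth, afamin binds vitamin E, and the vitamin D-binding protein carries vitamin D metabolites and actin. All are products of hepatocytes or their precursors, and liver and pancreas arise from neighbouring parts of the foregut endoderm. The study used *ALB* and *AFP* as hepatocyte markers in its cultures. The libraries hold whole cultures, so they do not show which cells made *GC* or a gene listed below as hepatocyte.

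The 4 genes lay on the long arm of chromosome 4 (GRCh38, GENCODE annotation). *ALB* (chr4:73397114-73421482), *AFP* (chr4:73431138-73456174) and *AFM* (chr4:73481745-73504001) followed one another on the plus strand, 9.66 kb and 25.6 kb apart, and *GC* (chr4:71741696-71804041) lay closer to the centromere on the minus strand. These positions and distances are those of the whole annotated genes. The canonical transcripts of *ALB* and *AFP* start further in, at 73404287 and 73436221. No exon base of any member was shared with another gene. The canonical transcripts of *ALB*, *AFP* and *AFM* each had 15 exons and that of *GC* had 13, with lengths of 2285, 2426, 1997 and 1685 bases. GGAC, a core of the m6A consensus, occurred 5 times in the *AFP* transcript, 7 times in *GC* and 1 time each in *ALB* and *AFM*. Per kb, this made 2.06 for *AFP*, 4.15 for *GC*, 0.438 for *ALB* and 0.501 for *AFM*, compared with a median of 3.76 over 20046 canonical transcripts. The density in *ALB* stood at percentile 1.31 of those transcripts and that in *AFM* at percentile 1.39. A GGAC tetramer is a letter match and not a measured m6A site.

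The proximal promoters of *ALB*, *AFP* and *AFM* are shown because these neighbours differed in level and in their calls. They are the 200 bases before the transcription start (RefSeq, GRCh38.p14, plus strand, 5′ to 3′), and capitals mark GTTAAT (a half-site of the hepatocyte factor HNF1), CCAAT on either strand (ATTGG when read on the other) and TATAAA.
ALB, chr4:73404087-73404286: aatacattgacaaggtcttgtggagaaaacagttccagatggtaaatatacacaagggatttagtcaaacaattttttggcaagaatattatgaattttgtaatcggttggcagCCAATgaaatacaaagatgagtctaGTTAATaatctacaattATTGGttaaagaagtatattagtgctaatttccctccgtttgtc
AFP, chr4:73436021-73436220: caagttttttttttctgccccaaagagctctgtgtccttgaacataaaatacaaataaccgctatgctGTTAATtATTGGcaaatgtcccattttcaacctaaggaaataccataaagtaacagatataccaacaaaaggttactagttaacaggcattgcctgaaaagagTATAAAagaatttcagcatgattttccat
AFM, chr4:73481545-73481744: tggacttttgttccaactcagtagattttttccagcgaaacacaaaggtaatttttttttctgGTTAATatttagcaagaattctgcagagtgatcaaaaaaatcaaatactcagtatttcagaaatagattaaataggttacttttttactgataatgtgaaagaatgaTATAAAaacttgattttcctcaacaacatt
GTTAAT was present in all 3 of these promoters, with its first base at -61, -132 and -137 from the start of *ALB*, *AFP* and *AFM*, and in 4.89% of 35116 RefSeq promoter windows of the same length (both strands searched). TATAAA stood in *AFP* and *AFM*, with first bases at -29 and -30, compared with 8.59% of windows, and CCAAT in *ALB* and *AFP*, compared with 28.0%. TTGCNNAA, written for C/EBP factors, was found in *ALB* and *AFM* (6.91% of windows). None of the matches overlapped another. Neither form searched for FOXA factors, TGTTTAC (2.32% of windows) or the variant TGTTTGC (2.49%), and not the HNF4 motif CAAAGTCC (0.832%), occurred in these 3 windows.

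*ALKBH5* itself was read first, as a check on the genotype labels. In hILOs it was 78.8 and 81.9 TPM in the WT libraries and 4.16 and 3.42 TPM in the A5-KO libraries, where TPM is a level scaled to transcript length and library total. In PPs it ranged from 33.7 to 172 CPM (read counts scaled to the library total) over the 8 WT libraries and from 7.43 to 19.1 CPM over the 8 A5-KO libraries, so that no library overlapped the other genotype. Of the listed markers, all 13 endocrine genes reached 1 TPM in every hILO library, and 9 to 10 of 11 pancreatic progenitor genes reached 1 CPM in every PP library. The PP libraries held 30516384 to 35206514 reads, whereas TPM keeps no trace of depth and that of the hILO libraries is unknown. These are bulk libraries, in which fewer cells of a type and less RNA per cell cannot be told apart.

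In hILOs, *GC* and *ALB* were higher in A5-KO, while *AFP*, the most abundant member, and *AFM*, the least abundant, were not called. The WT libraries held 934 and 929 TPM of *ALB*, whereas those of A5-KO held 1913 and 1846 TPM, a ratio of means of 2.02. For *GC* the WT values were 602 and 298 TPM, which differed from each other by more than any other pair of replicates among the members, and the A5-KO libraries held 1775 and 1692 TPM, a ratio of 3.85. *AFP* was already the fifth most abundant of all genes in both WT libraries, at 5535 and 5732 TPM, and the A5-KO libraries stood at 6446 and 6255 TPM, a ratio of 1.13. *AFM* was low throughout, at 6.24 and 5.60 TPM with *ALKBH5* intact and 7.79 and 7.59 TPM without it. In all 4 cases, both A5-KO libraries lay above both WT libraries. How many of all genes were ordered so was not counted, here or in PPs. With 2 libraries per genotype, this order alone does not set *AFP* and *AFM* apart from other genes.

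**Figure D1:**
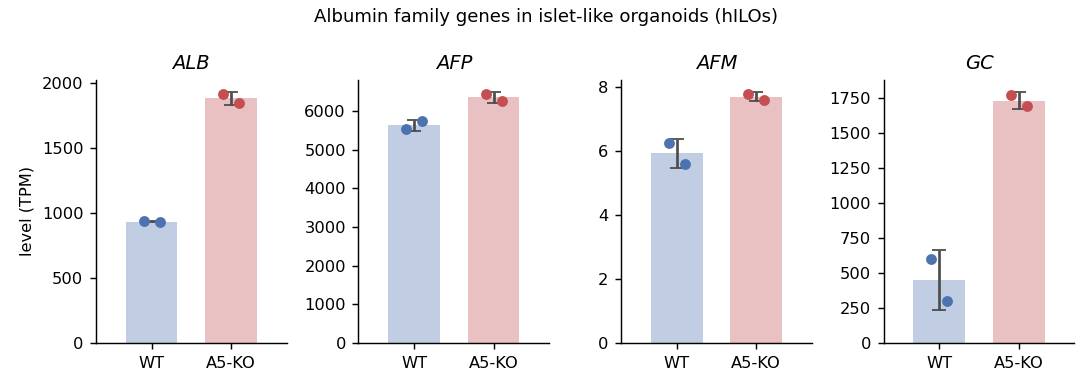
Level (TPM, linear axes from 0, a separate scale for each gene) of *ALB*, *AFP*, *AFM* and *GC* in hILOs. Points are single libraries, bars the mean and error bars the SD of 2 libraries; in every panel both A5-KO points lie above both WT points, and the *GC* points of WT, 602 and 298 TPM, lie far apart.

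Genes counted as called at an adjusted p under 0.05 together with a change of more than 1.5-fold (limma on log2(TPM + 1), Benjamini-Hochberg over all 17300 genes tested). Of the 4 members, 2 were called higher in A5-KO and none lower, compared with 2.7% of all genes called higher and 4.09% called lower. *ALB* rose by 1.01 on the log2 scale (SE 0.03, adjusted p = 0.00213) and *GC* by 2.03 (SE 0.35, adjusted p = 0.0366). *AFP* passed the adjusted p (0.17, SE 0.03, adjusted p = 0.0389) but not the 1.5-fold limit, and lost the former when any 1 library was left out, and *AFM* passed neither (0.33, SE 0.12, adjusted p = 0.167). The median difference over the 4 members was 0.67, compared with -0.06 over all genes tested. The *GC* call was lost when either A5-KO library was left out, with an adjusted p of 0.133 in both cases, and when genes of low level were kept in the test (adjusted p = 0.140).

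The make-up of the family therefore differed between genotypes. *AFP* made up 78.2% and 82.3% of the summed TPM of the 4 genes in the WT libraries and 63.6% and 63.8% in the A5-KO libraries. Per transcript length, as TPM gives it, the order was *AFP*, *ALB*, *GC*, *AFM* in each of the 4 libraries. *AFP* exceeded *ALB* 5.93- and 6.17-fold in WT and 3.37- and 3.39-fold in A5-KO. *ALB* exceeded *GC* 1.55- and 3.12-fold in WT but only 1.08- and 1.09-fold in A5-KO, the closest neighbours in that order. Both exceeded *AFM* by more than 10-fold in every library.

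The members did not rise alone, nor did hepatocyte genes rise together. Of 19 tested of 20 other hepatocyte genes, 5 were called higher in A5-KO hILOs and 4 lower, with a median difference of 0.14. Of all genes tested, 2.7% were called higher and 4.09% lower. *APOA2*, an apolipoprotein of high-density lipoprotein, rose from 839 and 836 TPM to 3793 and 3810 TPM, and *TTR* (transthyretin, a thyroid hormone and retinol carrier) rose from 7527 and 7550 TPM to 18674 and 18749 TPM. *TF* (transferrin) was also called higher, at 8.59 and 8.64 TPM in A5-KO and no more than 1.39 TPM in WT (log2 difference 2.07, SE 0.15), a call that was lost when any 1 of the 4 libraries was left out. The 4 called lower were *FGA*, *FGB* and *FGG*, which encode the chains of fibrinogen, and *AHSG*, of which the calls of *FGA* and *AHSG* were lost when any 1 library was left out. *APOA1* and *AMBP*, the most abundant genes of the list that were not called, differed by -0.0043 (SE 0.04, and above 0 under both other scalings) and 0.36 (SE 0.03). The summed level of the 20 genes was 20112 and 20135 TPM in the WT libraries compared with 34653 and 34452 TPM in the knockout. Most of this difference in the sum lay in *TTR* and *APOA2*. Of the 20 genes, 18 to 19 reached 1 TPM in each library, and none was at 0. Other lists moved with genotype too: 3 of 5 tested mesenchymal genes were called higher and 1 lower, although their summed level stood at 268 and 262 TPM in WT compared with 169 and 162 TPM in the knockout, and 1 of 13 endocrine genes was called higher and 4 lower, with sums that went from 35540 and 37841 TPM to 28649 and 27424 TPM. The part of these lists in the differences of the members was not tested.

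Regulators, receptors and chromosomal neighbours of the family were read from lists of their own. In hILOs, 2.7% of all genes tested were called higher in A5-KO and 4.09% lower, and no list here held more than 1 call in either direction. Of 20 tested regulators of albumin and alpha-fetoprotein transcription, 1 was called higher in A5-KO hILOs and 1 lower. *NR2F1*, an orphan nuclear receptor, rose from 0.768 and 0.814 TPM to 4.40 and 3.58 TPM, and *CEBPD*, a C/EBP factor, fell from 58.7 and 64.7 TPM to 34.5 and 34.9 TPM. *CEBPA* (log2 difference -0.17, SE 0.04) and *HNF4A* (0.20, SE 0.11), the most abundant regulators that were not called, are main activators of the hepatocyte programme. Among 10 tested genes of the receptors and the vitamin D pathway, *CYP27A1*, a sterol and vitamin D hydroxylase, was called higher (0.73, SE 0.06). *FCGRT*, whose product recycles albumin together with that of *B2M*, was 0.55 (SE 0.03) higher on the log2 scale and thus under the 1.5-fold limit. Among 7 tested neighbours on chromosome 4, *NPFFR2*, the gene next to *GC*, was called higher (1.16, SE 0.12) and the chemokine gene *CXCL8* lower (-1.08, SE 0.10). The calls of *NR2F1*, *CEBPD*, *CYP27A1*, *NPFFR2* and *CXCL8* were each lost when any 1 of the 4 libraries was left out. The list medians were -0.10 for regulators, 0.21 for receptors and the vitamin D pathway and -0.15 for neighbours.

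In untreated PPs, *AFP* and *ALB* were both higher in A5-KO, *AFP* from a high and *ALB* from a low level. *AFP* stood at 563 and 551 CPM in WT and at 1343 and 1294 CPM in A5-KO, a ratio of means of 2.37. *ALB* stood at 4.51 and 4.49 CPM in WT and at 16.6 and 14.4 CPM in A5-KO, a ratio of 3.44 that rested on 302 and 1029 reads. Neither gene overlapped between genotypes, and the share of all genes without such overlap was not counted. On the log2(CPM + 1) scale, which understates the change of low genes, *AFP* rose by 1.24 (SE 0.06, adjusted p = 1.25e-05) and *ALB* by 1.58 (SE 0.15, adjusted p = 0.000495, limma over 13911 genes). These were 2 of 2 members tested, since *AFM* and *GC* fell under the minimum mean of 1 CPM, and 1.57% of all genes were called higher and 1.13% lower.

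Act D did not remove the difference. At 1 h, *AFP* was 639 and 644 CPM in WT and 1311 and 1445 CPM in A5-KO, and *ALB* was 7.03 and 6.15 CPM in WT and 12.3 and 15.2 CPM in A5-KO. At 2 h, *AFP* was 670 and 628 CPM in WT and 1349.9 and 1389 CPM in A5-KO, and *ALB* was 6.39 and 6.80 CPM in WT and 16.1 and 13.7 CPM in A5-KO. At 3 h, *AFP* was 878 and 1032 CPM in WT and 1596 and 1504 CPM in A5-KO, and *ALB* was 8.17 and 10.7 CPM in WT and 20.0 and 19.5 CPM in A5-KO. At each of these times both A5-KO libraries lay above both WT libraries for both genes, an order whose share over all genes was not counted.

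**Figure D2:**
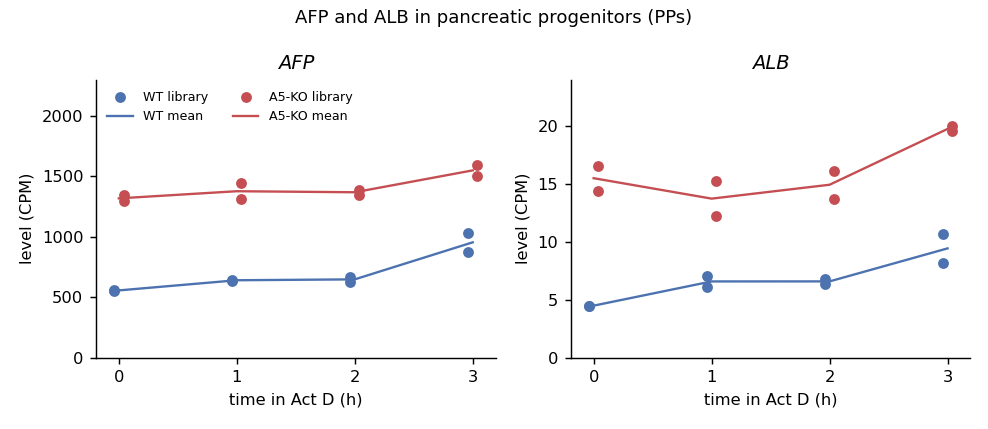
Level (CPM, linear axes from 0) of *AFP* and *ALB* in PPs after 0, 1, 2 and 3 h in Act D. Points are single libraries, 2 for each genotype and time, and lines join the means; the A5-KO points lie above the WT points at every time, and the highest values of each genotype are at 3 h.

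Both genes were called higher in A5-KO at each time (limma, adjusted over all genes of the time point). At 1 h, the ratio of the A5-KO mean to the WT mean was 2.15 for *AFP* and 2.08 for *ALB*, with SEs of the log2 difference of 0.08 and 0.16, compared with 3.19% of all genes called higher and 1.19% lower. At 2 h, the log2 differences were 1.08 (SE 0.07) for *AFP* and 1.07 (SE 0.18) for *ALB*, compared with 1.08% called higher and 0.262% lower. At 3 h, they were 0.70 (SE 0.09) and 1.00 (SE 0.16), compared with 1.07% called higher and 16.6% lower. The weakest of these calls was *ALB* at 2 h (adjusted p = 0.0433), which was lost when either A5-KO library of that time was left out, with adjusted p of 0.600 (without replicate 1) and 0.400 (without replicate 2). At 3 h, median-of-ratios scaling moved the median of all genes by 0.13, from -0.12 to 0.01. Relative to that median, *AFP* was 0.82 higher in CPM and 0.84 higher after scaling, and *ALB* was 1.12 and 1.13 higher. Of all calls at 3 h, 6.06% were in the higher direction in CPM and 17.6% after scaling.

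**Figure D3:**
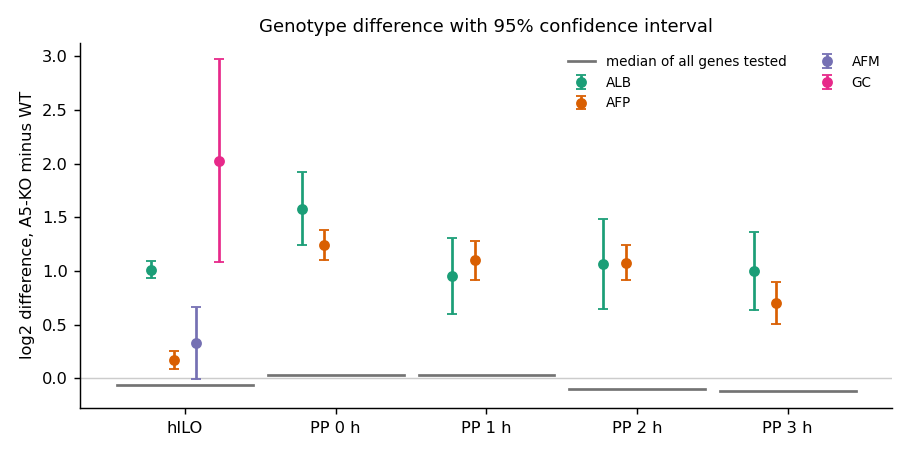
Difference between A5-KO and WT (log2, A5-KO minus WT) with its 95% confidence interval for each member tested, in hILOs and in PPs at each time in Act D. Grey bars mark the median of all genes tested, between -0.12 and 0.03; *ALB* and *AFP* lie above it in all 5 comparisons, and *AFM* and *GC* are drawn for hILOs alone.

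The stability of the 2 transcripts was read from the slope of log2(CPM + 0.1) over 0 to 3 h, where an mRNA that decays as fast as the average has a slope near 0 because each library is scaled to its own total. *AFP* rose in WT by 0.23 per h (SE 0.04, adjusted p = 0.0115), the 1 member called rising of 2 tested, compared with 0.132% of all genes called rising and 0.11% called falling. The slope of *ALB* was 0.31 per h (SE 0.07, adjusted p = 0.0704) and was not called. In A5-KO, the slopes were 0.07 per h for *AFP* (SE 0.04, adjusted p = 0.142) and 0.12 per h for *ALB* (SE 0.07, adjusted p = 0.160). Neither was called, while 7.44% of all genes were called rising and 37.1% falling. The slope difference, A5-KO minus WT, was -0.16 per h for *AFP* (95% interval -0.28 to -0.05, adjusted p = 0.0850) and -0.19 per h for *ALB* (95% interval -0.39 to 0.00, adjusted p = 0.228). None of the 2 passed the test, compared with 2.61% of all genes called steeper and 0.0661% called shallower or rising in A5-KO. A half-life could not be given, since neither gene fell relative to its library.

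The slopes were sensitive to single libraries and to scaling. The rise of *AFP* in WT was lost without WT replicate 2 at 0 h (adjusted p = 0.0728) or WT replicate 1 at 3 h (adjusted p = 0.0868), at slopes of 0.24 and 0.23 per h. With median-of-ratios scaling, both genes were called rising in both genotypes, in A5-KO at 0.17 per h for *AFP* and 0.21 per h for *ALB*. That scaling changed the share of rising among all called genes from 54.5% to 69.2% in WT and from 16.7% to 46.3% in A5-KO. The slope difference of *AFP* was called without the 2 h libraries (-0.18, adjusted p = 0.0288) and without WT replicate 1 at 2 h alone (-0.17, adjusted p = 0.0432). It shrank to -0.09 with median-of-ratios scaling (adjusted p = 0.330) and to -0.11 without WT replicate 2 at 3 h (adjusted p = 0.273). The slope difference of *ALB* went to -0.72 from 0 and 1 h only (adjusted p = 0.340) and to -0.12 with median-of-ratios scaling (adjusted p = 0.439).

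*GC* and *AFM* were close to the limit of detection in PPs, where 3 reads equalled 0.0852 to 0.0983 CPM. These intervals and limits cover counting error only. *GC* had 14 and 24 reads in the untreated WT libraries and 0 and 3 reads in the untreated A5-KO libraries, a depth-adjusted ratio of 0.080 (exact 95% interval 0.016 to 0.251). In Act D the order was the opposite. At 1 h, *GC* had 5 and 1 reads in WT and 20 and 14 in A5-KO, a ratio of 5.40 (2.24 to 15.7). At 2 h, it had 8 and 9 reads in WT and 51 and 18 in A5-KO, a ratio of 4.06 (2.36 to 7.37). At 3 h, it had 9 reads in each WT library and 18 and 20 in A5-KO, a ratio of 2.06 (1.15 to 3.83). The libraries of the 2 genotypes did not overlap at any time, yet 1 A5-KO library at 2 h held 51 of the 144 reads of its genotype. The share of all genes without such overlap was not counted.

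*AFM* had 9 reads over the 8 WT libraries and 15 over the 8 A5-KO libraries, with 0 reads in 5 and 3 of them. At 2 h the WT libraries had 0 reads and the A5-KO libraries 2 and 6, the highest of any library, and a genotype difference of *AFM* was not detectable at this depth in PPs. When all genes above 0 were tested, *GC* and *AFM* were not called at any time in PPs. The unadjusted order of *GC* in that test was -0.58 at 0 h (adjusted p = 0.152) and 0.46, 0.66 and 0.30 at 1, 2 and 3 h (adjusted p = 0.173, 0.324 and 0.218, limma).

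**Figure D4:**
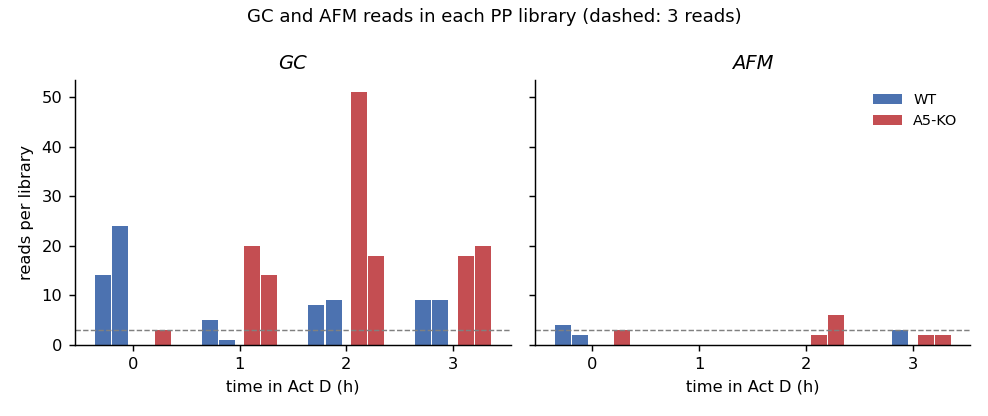
Reads of *GC* and *AFM* in each PP library after 0, 1, 2 and 3 h in Act D (linear axis from 0, 1 bar per library, replicates side by side). The dashed line marks 3 reads; *GC* bars of WT are the taller at 0 h and those of A5-KO at 1, 2 and 3 h, with a highest value of 51.

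Per transcript length, the order of levels in PPs was *AFP*, then *ALB*, with *GC* and *AFM* last. *AFP* per kb exceeded *ALB* per kb 118- and 116-fold in untreated WT PPs and 76.4- and 84.4-fold in untreated A5-KO PPs. *AFP* made up between 98.67% and 99.1% of the summed CPM of the 4 genes in each PP library. Over the 8 libraries of each genotype, *AFP* ranged from 551 to 1032 CPM (median 641) in WT and from 1294 to 1596 CPM (median 1369) in A5-KO. These 8 libraries span 0 to 3 h in Act D and are not replicates of a genotype. For *ALB* the ranges were 4.49 to 10.7 CPM (median 6.59) in WT and 12.3 to 20.0 CPM (median 15.7) in A5-KO. TPM of hILOs and CPM of PPs were normalized separately, so levels were not compared between the cell types.

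The 2 genes also varied alike across PP libraries, which share genotype and time in Act D. Pearson's r of log2(CPM + 1) between *AFP* and *ALB* was 0.978 over 16 libraries, 0.931 over the 8 of WT and 0.788 over the 8 of A5-KO. Among 13619 other genes, those closest to *AFP* were *POSTN* (0.995), *TTR* (0.993), *ATP1B3* (0.988), *GSTA2* (0.986) and *LCP1* (0.982). Those closest to *ALB* were *POSTN* (0.985), *ODC1* (0.980), *IDH1* (0.980), *AFP* and *GSTA2* (0.970).

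In untreated PPs, several other hepatocyte genes moved the same way as *AFP* and *ALB*. Of 14 tested of the 20, 6 were called higher in A5-KO and none lower, with a median difference of 0.42 compared with 0.03 over all genes. Of all genes tested, 1.57% were called higher and 1.13% lower. *TTR* rose from 6.60 and 7.41 CPM to 35.1 and 35.7 CPM. *FGB* and *FGG*, which encode chains of fibrinogen, rose by 1.84 (SE 0.18) and 1.54 (SE 0.22) on the log2 scale. *AMBP* (-0.18, SE 0.08) and *SERPINA1* (-0.55, SE 0.13), the most abundant of the list that were not called, stood lower in A5-KO, and *SERPINA1* was called lower without WT replicate 1 or A5-KO replicate 2. The summed level of the 20 genes overlapped between genotypes, at 1290.5 and 1409 CPM in WT and 1273 and 1432 CPM in A5-KO. Of 8 tested mesenchymal genes, 4 were called higher and none lower, *POSTN* from 10.1 and 10.6 CPM to 53.0 and 46.2 CPM. Of 3 tested pluripotency genes, 1 was called higher, the RNA-binding protein gene *LIN28A* (1.01), from 119 and 115 CPM to 246 and 230 CPM. This gene made up most of the summed level of the 6 listed, 126 and 124 CPM in WT compared with 252 and 236 CPM in the knockout. *DPPA4* (-0.53, SE 0.21) and *ZFP42* (0.21, SE 0.20) were not called. The part of these genes in the differences of the members was not tested. At 1, 2 and 3 h, 6, 4 and 2 of 15 tested hepatocyte genes were called higher, and none lower, compared with 3.19%, 1.08% and 1.07% of all genes called higher.

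Of 20 tested regulators, 1 was called higher and 1 lower in untreated A5-KO PPs, compared with 1.57% of all genes called higher and 1.13% lower. *FOXA1*, a pioneer factor of foregut endoderm, rose from 21.0 and 13.9 CPM to 49.4 and 40.1 CPM. *ONECUT1*, a factor of both liver and pancreas development, fell from 18.7 and 17.1 CPM to 7.23 and 5.33 CPM. Of the receptors and the vitamin D pathway, 1 of 13 tested was called lower, the endocytic adaptor gene *DAB2* (-0.59, SE 0.12), a call that was lost without WT replicate 1 or A5-KO replicate 2. None of 5 tested neighbours on chromosome 4 was called, and their median difference was -0.02. At 3 h in Act D, 15 of the 20 tested regulators were called lower in A5-KO, compared with 16.6% of all genes, and none higher, with a list median of -1.26. In the slopes, 18 of 20 were called falling in A5-KO, compared with 37.1% of all genes, and 1 of 20 in WT, compared with 0.11%. The slope difference itself was called steeper in A5-KO for 3 of 20, compared with 2.61%. The summed level of the 21 listed regulators went from 1151 and 1017 CPM at 0 h to 347 and 312 CPM at 3 h in A5-KO. In WT the sum did not fall steadily. It was 1082 and 896 CPM at 0 h and 461 and 508 CPM at 1 h. At 2 h the WT replicates lay apart, at 389 and 665 CPM, and at 3 h they stood at 548 and 570 CPM. *AFP* and *ALB* were called higher in A5-KO at 3 h, and neither was called falling in either genotype.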

How the data were processed

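Published tables were used as deposited. Per the labels and the study's methods, the authors ran fastp on the paired-end reads and used HISAT2 (version 2.1.0) with GRCh38. The deposited hILO values are TPM from StringTie. The deposited PP values are CPM over listed genes with the spike-ins removed by the authors. The PP read counter is not given in the sources used here. At least 99.9957% of CPM values in each library were whole reads within 0.02 reads, and edgeR and DESeq2 were run on those reads as alternatives. Gene symbols came from the RefSeq and GENCODE tables and matched 60370 and 60369 identifiers.

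Genotypes were compared with limma 3.58.1 (R 4.3.3, trended eBayes) on log2(value + 1), within hILOs and within each PP time, for genes with a mean of at least 1. Slopes used log2(CPM + 0.1), all 16 PP libraries and genotype-specific lines. Calls required an adjusted p below 0.05 and, for levels, over 1.5-fold. Alternatives were another pseudocount, no filter, median-of-ratios or quantile scaling, robust eBayes, a replicate block, edgeR 4.0.16, DESeq2 1.42.0, time subsets and each library left out. The limma genotype and slope fits and the edgeR fit were tested on simulated data with planted changes. The other alternatives were not.

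The members and the gene lists were chosen with earlier results of these data known. Named genes were the 4 members, *ALKBH5*, per list the 3 called genes with the largest change and the 2 most abundant not called, and the 5 genes closest to each tested member by Pearson's r. *FGA* and *AHSG* were named after their values were seen. Motifs were searched on both strands of 200-base RefSeq promoter windows.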

Additional observations from a re-analysis of the deposited data

Results flagged for a closer look

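*GC* differed in direction between untreated PPs and the other comparisons. The ratio of the A5-KO mean to the WT mean was 0.0767 in PPs at 0 h, where both A5-KO libraries lay below both WT libraries, and 5.61, 3.97 and 2.07 at 1, 2 and 3 h in Act D and 3.85 in hILOs, where both A5-KO libraries lay above both WT libraries. The difference between these comparisons was not tested, and the PP values rest on 0 to 51 reads per library.

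The fibrinogen genes were called in opposite directions in the 2 cell types. *FGA* differed by -0.68 on the log2 scale in hILOs, a call lost when any 1 library was left out, and by 1.18 in untreated PPs, a call lost without A5-KO replicate 1, in a fit of all 16 PP libraries and when genes of low level were kept. *FGB* differed by -0.89 in hILOs and by 1.84 in untreated PPs. *FGG* differed by -1.06 in hILOs and by 1.54 in untreated PPs, where the call was lost when genes of low level were kept in the test (adjusted p = 0.0838). The difference between cell types was not tested.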

How the results depend on the processing

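Each higher level of *ALB* and *AFP* in A5-KO kept its direction in every alternative run, in hILOs and at all 4 times in PPs. Of the values computed for the members, 245 kept direction and side of the threshold, 10 lost the call, 10 gained it and 1 changed sign. When genes of low level were kept, 1 member was called higher in hILOs and 1 each in PPs at 1 and 2 h, in place of 2, with more genes tested. Leaving out 1 library at a time gave 1 to 2 members higher in hILOs, 1 to 2 in PPs at 2 h, 0 to 1 rising in WT and 0 to 1 with a steeper slope in A5-KO. The slopes called 1 member steeper in A5-KO from 0 and 3 h only, and 1 without the 2 h libraries. Rising members numbered 2 in WT with median-of-ratios scaling and 2 from 0 and 3 h only, and in A5-KO 2 with that scaling, 1 from 0 and 3 h only and 1 without the 2 h libraries. From 0 and 1 h only, the *ALB* slope in A5-KO was -0.18 and the *ALKBH5* slope difference -0.53, both of opposite sign to all times together. *APOA1* in hILOs differed by 0.061 with median-of-ratios scaling, 0.126 with quantile normalization, and -0.041 to 0.033 with 1 library left out. The cause was not tested.

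Replicate numbers marked no stated pair. For each gene tested, the log2 difference between replicates 1 and 2 was taken within each genotype. Over genes, this difference in WT correlated with that in A5-KO at -0.01 in hILOs. In PPs the correlation was 0.17, -0.02, -0.07 and -0.01 at 0, 1, 2 and 3 h. With a replicate block, 2 members were called higher in hILOs and 2 at each PP time, 1 rose in WT and 0 in A5-KO, and none differed in slope. Over all genes the block moved calls in hILOs from 467 higher and 707 lower to 289 and 385, in PPs at 0 h from 218 and 157 to 365 and 266, at 2 h from 144 and 35 to 282 and 346, and in the slope difference from 9 shallower and 355 steeper to 0 and 0 (limma, with 311 and 2601 at an unadjusted p under 0.05). The block ended the calls of *AHSG* (adjusted p = 0.0642) and *NR2F1* (adjusted p = 0.0566) in hILOs. Counting error limits *GC* and *AFM* in PPs, and 2 libraries per group limit every comparison.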

Other observations

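The 3 fibrinogen chain genes were called lower in A5-KO hILOs and higher in untreated A5-KO PPs. In hILOs, *FGB* went from 1362 and 1394 TPM in WT to 737 and 748 TPM in the knockout, *FGG* from 714 and 660.0 TPM to 332 and 324 TPM, and *FGA* from 81.5 and 81.9 TPM to 51.4 and 50.0 TPM. In untreated PPs, all 3 were under 20 CPM, with *FGB* at 4.56 and 3.07 CPM in WT and at 16.9 and 15.3 CPM in A5-KO. Some liver genes were near or at 0: *HP* (haptoglobin) did not exceed 0.366 TPM in any hILO library, and *APOH* was at 0 in all 4 untreated PP libraries although it ranged from 27.4 to 51.5 TPM in hILOs.

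The summed level of 13 endocrine genes in A5-KO hILOs was lower than in WT while the summed level of the 4 members was higher, at 7077 and 6965 TPM in the WT libraries compared with 10143 and 9800.5 TPM in the knockout. *PPY* (pancreatic polypeptide) fell from 101 and 80.1 TPM to 16.2 and 11.1 TPM. *SST* (somatostatin) fell from 381 and 367 TPM to 108 and 107 TPM, and *GCG* (glucagon) from 2192 and 2270.4 TPM to 1267 and 1266 TPM. Not every endocrine gene moved this way. Among the 13, 4 were called lower, 1 was called higher and 8 were not called. Of all genes tested, 4.09% were called lower and 2.7% higher. The log2 difference lay above 0 for 4 of them. *CHGA* (-0.16, SE 0.07) and *INSM1* (0.24, SE 0.04) were among those not called.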
